A study of Homo sapiens with 17 samples.

Results

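The set described here held 9 of the 60662 genes in the count table: the 5 long noncoding RNAs NEAT1, MALAT1, KCNQ1OT1, PVT1 and TUG1, and the 4 genes SFPQ, NONO, PSPC1 and RBM14, which encode proteins of paraspeckles. The set was chosen by the counts of NEAT1 and MALAT1, which were higher with vehicle and higher again with progesterone (P4) in these libraries. Their values are therefore given as a description with no test, and the other 7 genes were read from fits over all genes. Ishikawa cells, an epithelial line from a human endometrial adenocarcinoma, were grown in medium with charcoal-stripped serum, and total RNA was sequenced as stranded libraries. The Control group was 3 cultures in untreated medium. The Nap only group was 2 cultures given the part of the vehicle that the labels call Nap, a term they do not spell out. The Vehicle control group was 3 cultures that the labels describe as Nap with ethanol, given as 70% EtOH. The P4 group was 3 cultures given Nap and P4, and the labels do not say whether these also received ethanol. The labels list several P4 concentrations and assign none to a sample. The study's figure legends state a dose for the sequenced P4 cultures, but in another unit than its methods and the labels. No dose is therefore given here. Every treatment lasted 24 h, and cultures of a group were numbered as biological replicates. A further 6 libraries came from cultures treated with recombinant PSAT1. Their labels contradict each other about P4, and they entered no comparison.

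Paraspeckles are bodies in the nucleus that form around NEAT1 RNA while it is being transcribed. SFPQ, NONO and PSPC1 belong to 1 family of RNA-binding proteins that coat NEAT1, and RBM14 is a further protein needed for the bodies to assemble. MALAT1 is the neighbouring gene and its RNA gathers in nuclear speckles, where splicing factors are stored. The long NEAT1 isoform and MALAT1 are not polyadenylated like messenger RNA: RNase P cuts their 3′ ends, which then fold into a triple helix of U-rich and A-rich stretches that protects them from decay.

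The 3′ ends are shown because they are the sequence feature that sets these RNAs apart from the other members. Both are given from 5′ to 3′ on the plus strand of GRCh38, from GENCODE 29 transcripts. The first is the last 100 bases of the long NEAT1 transcript at chr11:65445441-65445540. The second is the stretch of the same length in the main MALAT1 transcript that shares most with it, at chr11:65506024-65506123, with 346 bases of the annotated transcript after it. Capitals mark the 3 exact runs of at least 8 bases that both share in the same order.
NEAT1: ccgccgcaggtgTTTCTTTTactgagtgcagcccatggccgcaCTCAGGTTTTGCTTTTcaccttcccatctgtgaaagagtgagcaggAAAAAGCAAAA
MALAT1: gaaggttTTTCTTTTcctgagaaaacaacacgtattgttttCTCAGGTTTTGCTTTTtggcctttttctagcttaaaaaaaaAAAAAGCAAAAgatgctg
The runs were TTTCTTTT, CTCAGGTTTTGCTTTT and AAAAAGCAAAA, that is 2 U-rich stretches and 1 A-rich stretch in the RNA. Of 206694 GENCODE 29 transcripts, 2 held the 3 runs in this order with at most 60 bases between neighbours, 1 of NEAT1 and 1 of MALAT1. The runs were taken from these 2 transcripts, so both matches were given in advance.

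Library totals ran from 4999521 to 19704493 counts, with Vehicle control replicate 1 the smallest. Transcripts of the mitochondrial genome took 21.4% to 28.5% of the counts in the Control and 25.6% to 26.8% in the P4 libraries. All 6 epithelial markers checked (EPCAM, KRT8, KRT18, KRT19, CDH1 and CLDN4) were present, with summed levels of 1217 to 1261 CPM (counts scaled to library size) in the Vehicle control and 951 to 1089 CPM in the P4 libraries. The 5 stromal markers summed to 67.8 to 92.2 CPM in the Vehicle control and 65.6 to 76.2 CPM in the P4 libraries. Leukocyte markers summed to at most 1.48 CPM and endothelial markers to at most 1.56 CPM in the 4 groups. Of these, CDH5 and MS4A1 had 0 counts in the 4 groups, and the others, PTPRC included, were not at 0 in every group. Levels below are CPM scaled by TMM factors. A gene was called where edgeR's quasi-likelihood test gave a Benjamini-Hochberg adjusted p under 0.05 over all genes tested.

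NEAT1 (ENSG00000245532.9), a lincRNA of 22767 bases at chr11:65422774-65445540, was at 103, 98.9 and 100.1 CPM in the 3 Control libraries and at 110 and 107 CPM in the 2 Nap only libraries. It was at 261, 266 and 293 CPM in the Vehicle control and at 707, 1058 and 868 CPM in the P4 libraries. Each Vehicle control library lay above every Control and Nap only library, and each P4 library above every Vehicle control library. On average NEAT1 was 2.77-fold higher in the Vehicle control than in the Control (log2 fold change 1.47, SE 0.07) and 3.19-fold higher with P4 than in the Vehicle control (1.67, SE 0.12). From Control to P4 the step was 8.79-fold (3.14, SE 0.13), while Nap only and Control differed by 1.09-fold (0.12, SE 0.09). In bulk RNA, more RNA per cell and more cells that express a gene cannot be told apart, and gene counts do not separate the short from the long NEAT1 isoform.

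MALAT1 (ENSG00000251562.8), a lincRNA of 8829 bases at chr11:65497688-65506516, held 2316, 2229 and 2299.7 CPM in the Control and 1868 and 2129 CPM in the Nap only libraries. The Vehicle control libraries held 3951, 5752 and 5492 CPM, and the P4 libraries 7882, 14463 and 11100.4 CPM. As for NEAT1, each Vehicle control library lay above every Control and Nap only library and each P4 library above every Vehicle control library. Unlike for NEAT1, the Nap only libraries lay below the Control libraries, and the spread was wider than for NEAT1 in the other 3 groups but not in the Control. MALAT1 was 2.27-fold higher in the Vehicle control than in the Control (log2 fold change 1.18, SE 0.10) and 2.19-fold higher with P4 than in the Vehicle control (1.13, SE 0.24). It took 0.214% to 0.241% of all counts in Control libraries and 0.772% to 1.32% in P4 libraries.

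**Figure D1:**
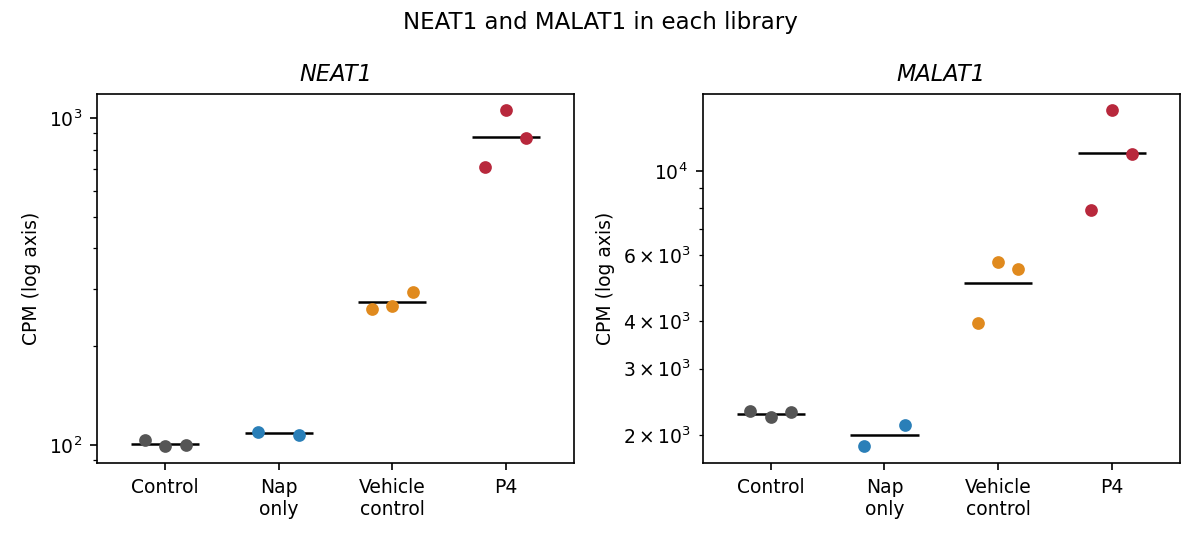
CPM of NEAT1 (left) and MALAT1 (right) on log axes in each of the 11 labelled libraries. Each point is 1 library and each line the arithmetic mean of its group. The P4 points lie highest for both genes, from 707 CPM for NEAT1 and from 7882 CPM for MALAT1, with Vehicle control in between.

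The ratio of NEAT1 to MALAT1 counts does not depend on library scaling. It was 0.0446, 0.0444 and 0.0435 in the Control, 0.0586 and 0.0504 in the Nap only, 0.0660, 0.0463 and 0.0533 in the Vehicle control and 0.0897, 0.0732 and 0.0782 in the P4 libraries. The P4 libraries were thus the highest, whereas the Vehicle control and Nap only ranges overlapped. Set against the messenger RNA of its binding protein SFPQ, NEAT1 gave 0.223 to 0.236 counts per SFPQ count in the Control, 0.232 to 0.236 in the Nap only, 0.526 to 0.600 in the Vehicle control and 2.46 to 3.93 in the P4 libraries. In P4 libraries more reads fell on NEAT1 than on SFPQ, and in the libraries of the other groups fewer.

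Per length, in RPKM (CPM per kilobase of exon), MALAT1 was the most abundant of the 9 in every group, at 258 ± 5.27 (SD, n = 3) in the Control and 1263 ± 373 in the P4 libraries. NONO came next in every group, at 110 ± 8.48 in the Control and 89.8 ± 3.44 with P4. NEAT1 was the eighth in the Control at 4.43 ± 0.101 RPKM, where its range overlapped that of PVT1 at 5.12 ± 1.15. In the Vehicle control it stood at 12.0 ± 0.751, overlapping PSPC1 at 12.2 ± 0.481. With P4 it was the third at 38.5 ± 7.72, overlapping SFPQ at 36.9 ± 1.52. KCNQ1OT1 was the lowest in each group, at 1.52 ± 0.147 RPKM in the Control.

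The comparison of P4 with the Vehicle control sets P4 against the vehicle named in the labels. If the P4 cultures received no ethanol, the presence of P4 and the absence of ethanol cannot be told apart in it. All 7 genes read from the fit were lower with P4, where 26.5% of the 16540 genes tested were called lower, 26.6% higher and 53.0% in either direction. The median log2 fold change was -0.58 for the 7 genes and -0.01 for all genes tested. In the same libraries NEAT1 was higher and the 4 protein genes lower. Scaling by library totals or upper quartiles moved the median of all genes to -0.13 and -0.10, and the share of higher genes among those called from 50.1% to 37.5% and 40.7%. Relative to those medians the directions of the 9 genes were as before: under library totals SFPQ was at -0.98 and RBM14 at -1.01, NONO at -0.32, NEAT1 at 1.55 and MALAT1 at 1.00.

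SFPQ (chr1:35176378-35193148, minus strand), which binds NEAT1 and also acts in splicing and transcription, was at 496, 497 and 488 CPM in the Vehicle control and at 287, 269 and 266 CPM in the P4 libraries. The P4 libraries lay well below those of every other group, as the Control held 419 to 449 CPM. The fold of P4 over Vehicle control was 0.553 (log2 fold change -0.86, SE 0.06, edgeR adjusted p = 4.29e-07).

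RBM14 (chr11:66616582-66627347, plus strand) was at 67.8, 66.2 and 65.9 CPM in the Vehicle control and at 39.0, 33.5 and 35.8 CPM in the P4 libraries, 0.539-fold (log2 fold change -0.89, SE 0.08, edgeR adjusted p = 2.82e-06). All P4 libraries were below the lowest Control library, at 51.0 CPM. RBM14 overlaps the readthrough gene RBM14-RBM4 on the same strand, so how reads were split between them is uncertain.

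PSPC1 (chr13:19674752-19783019, minus strand) held 59.3, 56.2 and 60.7 CPM in the Vehicle control and 45.5, 48.1 and 47.8 CPM with P4. The groups did not overlap, and the log2 fold change was -0.32 (SE 0.07, edgeR adjusted p = 0.00279). The antisense gene PSPC1-AS2 overlaps it.

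NONO (chrX:71283192-71301168, plus strand), the usual partner of SFPQ, showed a smaller shift, from 513, 557 and 561 CPM in the Vehicle control to 475, 457 and 494 CPM with P4. The groups did not overlap (log2 fold change -0.20, SE 0.06, edgeR adjusted p = 0.0122). Without Vehicle control replicate 2 or 3 the adjusted p was 0.0624 or 0.0649, and with no filter on low counts 0.0759.

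Ratios of counts within each library compare the protein genes with each other. SFPQ counts per NONO count averaged 0.909 ± 0.0503 (SD, n = 3) in the Vehicle control and 0.577 ± 0.0341 in the P4 libraries, a log2 difference of -0.65. RBM14 per NONO differed by -0.69 and SFPQ per PSPC1 by -0.53. For these 3 ratios the groups did not overlap, and the exact two-sided permutation test gave p = 0.1, the smallest that 3 against 3 allows (0.133 adjusted over 4 ratios). PSPC1 per NONO differed by -0.12 (exact permutation p = 0.2).

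**Figure D2:**
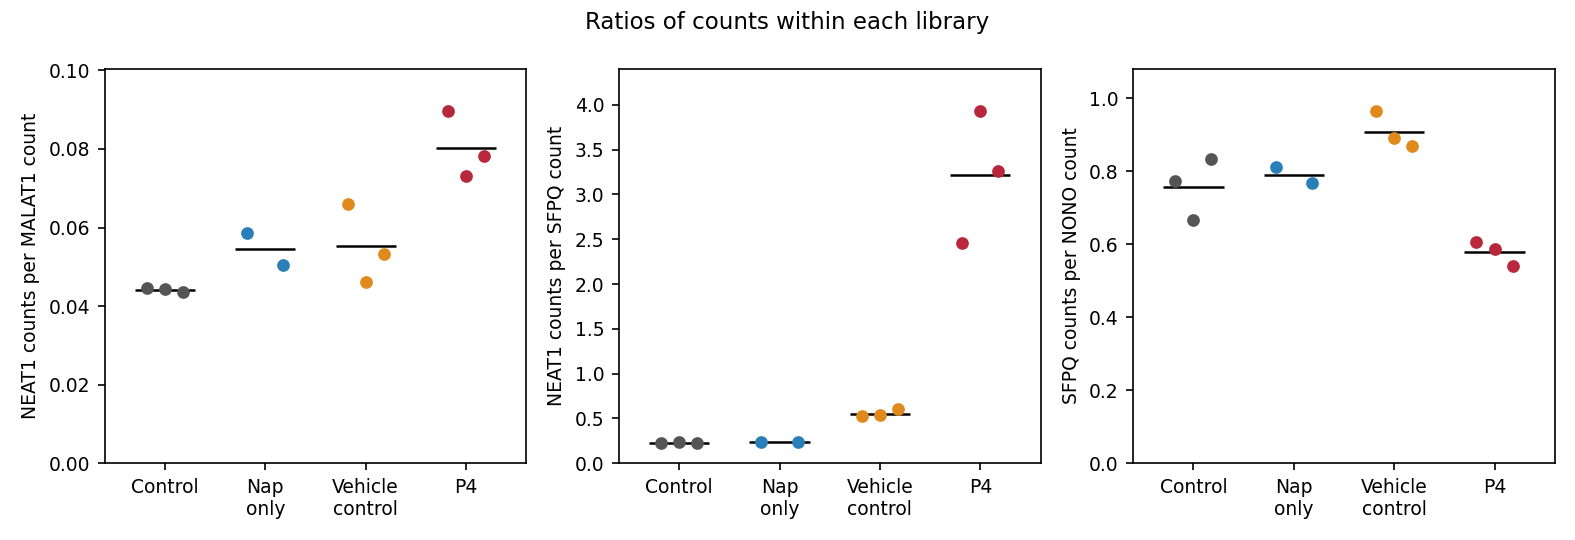
Ratios of raw counts in each of the 11 labelled libraries for NEAT1 to MALAT1, NEAT1 to SFPQ and SFPQ to NONO, with all axes from 0. Points are libraries and lines group means. For NEAT1 to SFPQ the P4 points lie between 2.46 and 3.93 and all others at or below 0.600. For SFPQ to NONO the P4 points are the lowest.

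Of the other 3 long noncoding RNAs, none was higher with P4. KCNQ1OT1 (chr11:2608328-2699994, minus strand), an imprinted antisense transcript within KCNQ1, was at 195, 183 and 190 CPM in the Vehicle control and at 127, 139 and 115 CPM with P4. The groups did not overlap (log2 fold change -0.58, SE 0.08, edgeR adjusted p = 5.51e-05). Since the strand setting of the counting is not stated, reads of the overlapping KCNQ1 gene may be among its counts. KCNQ1 itself had a log2 fold change of 0.32 (SE 0.34, adjusted p = 0.451).

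PVT1 (chr8:127794533-128101253, plus strand), next to MYC, was at 55.9, 39.4 and 43.3 CPM in the Vehicle control and at 28.9, 32.5 and 25.7 CPM with P4 (log2 fold change -0.65, SE 0.13, edgeR adjusted p = 0.00133). MYC had a log2 fold change of 0.60 (SE 0.07, edgeR adjusted p = 3.18e-05) in the same comparison, so the neighbours moved in opposite directions.

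TUG1 (chr22:30969245-30979395, plus strand), annotated as starting from a bidirectional promoter, was at 263, 311 and 327 CPM in the Vehicle control and at 266, 268 and 262 CPM with P4. The groups overlapped because of Vehicle control replicate 1, the shallowest library. Its log2 fold change of -0.19 (SE 0.07, edgeR adjusted p = 0.0465) was the smallest of the 7 genes and was past the threshold in 7 of 15 alternatives. Without Vehicle control replicate 2 or 3 or P4 replicate 3 the adjusted p was 0.155, 0.227 or 0.168, and DESeq2 gave 0.0769.

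**Figure D3:**
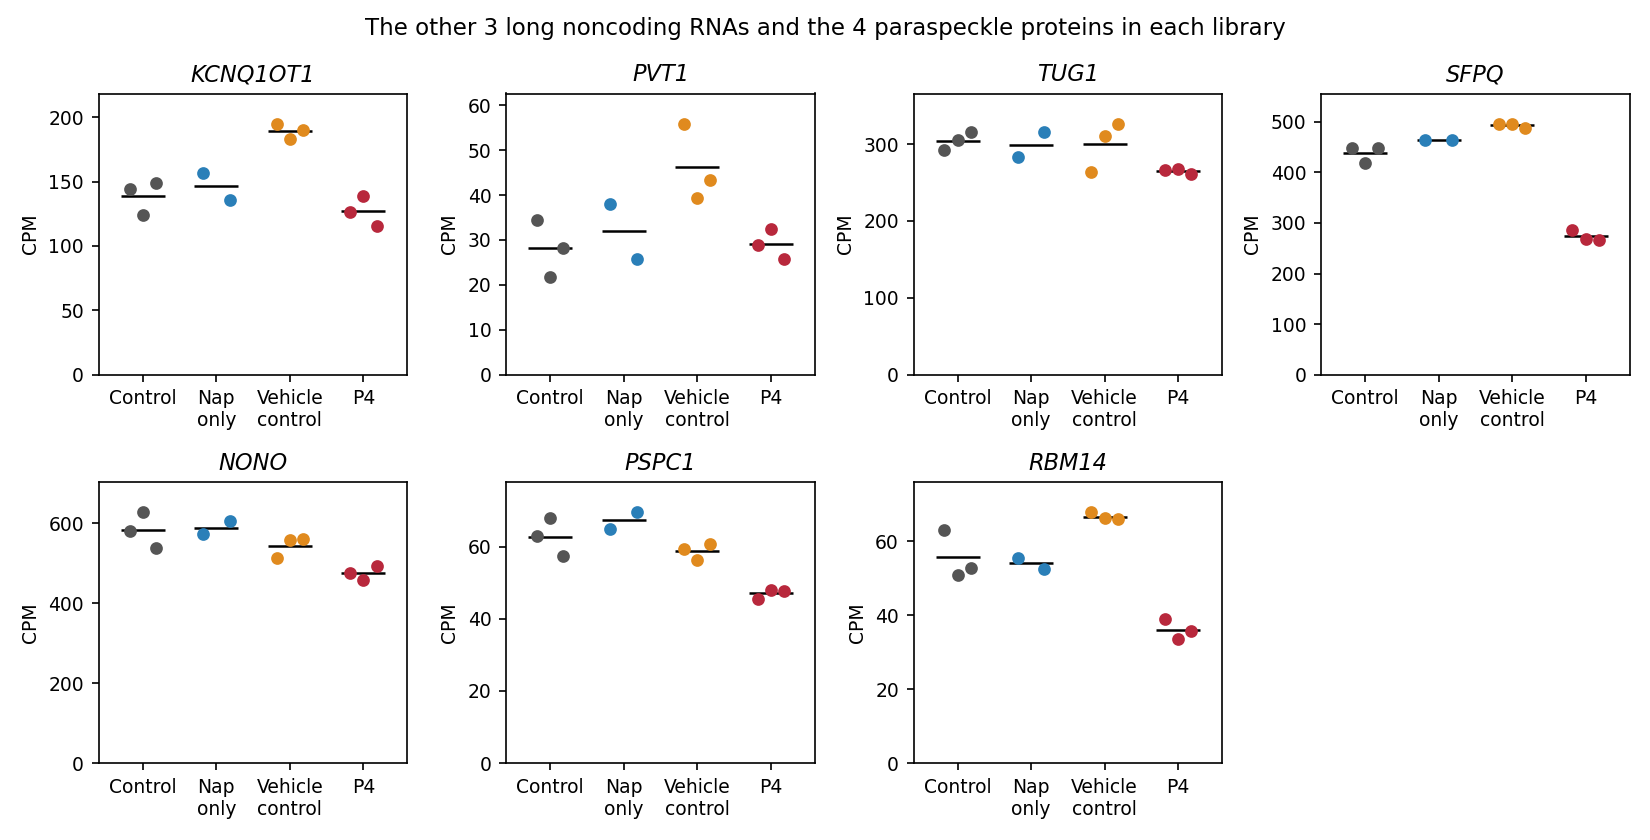
CPM of the 7 other genes in each of the 11 labelled libraries, with axes from 0. Points are libraries and lines group means. SFPQ, NONO, PSPC1 and RBM14 are lowest in the 3 P4 libraries, while KCNQ1OT1 and PVT1 are highest in the Vehicle control.

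The comparison of the Vehicle control with the Control shows what the vehicle did alone. In it 4 of the 7 genes were higher and none lower, where 11.9% of 16673 genes tested were called higher and 22.6% in either direction. KCNQ1OT1 rose from 144, 124 and 149 CPM in the Control to the Vehicle control values above, a log2 fold change of 0.48 (SE 0.08, edgeR adjusted p = 1.87e-04), and the call held in all 15 alternatives. PVT1 rose from 34.4, 21.8 and 28.1 CPM by 0.72 (SE 0.20, edgeR adjusted p = 0.0359), with an adjusted p of 0.0930 without Vehicle control replicate 3 and 0.0977 without Control replicate 3.

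Among the proteins, RBM14 rose from 63.0, 51.0 and 52.8 CPM in the Control by 0.29 on the log2 scale (SE 0.08, edgeR adjusted p = 0.0177). Leaving out Vehicle control replicate 1, 2 or 3 or Control replicate 3 gave adjusted p of 0.0700, 0.0580, 0.0583 and 0.0621. SFPQ rose from 449, 419 and 449 CPM by 0.20 (SE 0.07, edgeR adjusted p = 0.0442). That call did not hold without Vehicle control replicate 1, 2 or 3 (adjusted p 0.143, 0.165 and 0.134) or Control replicate 1 or 2 (0.0671 and 0.0619). NONO (log2 fold change -0.07, 95% interval -0.21 to 0.08), PSPC1 (-0.07, -0.23 to 0.09) and TUG1 (0.02, -0.13 to 0.16) did not pass the test. Scaled by library totals alone, KCNQ1OT1 was the 1 gene of the 7 that passed.

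**Figure D4:**
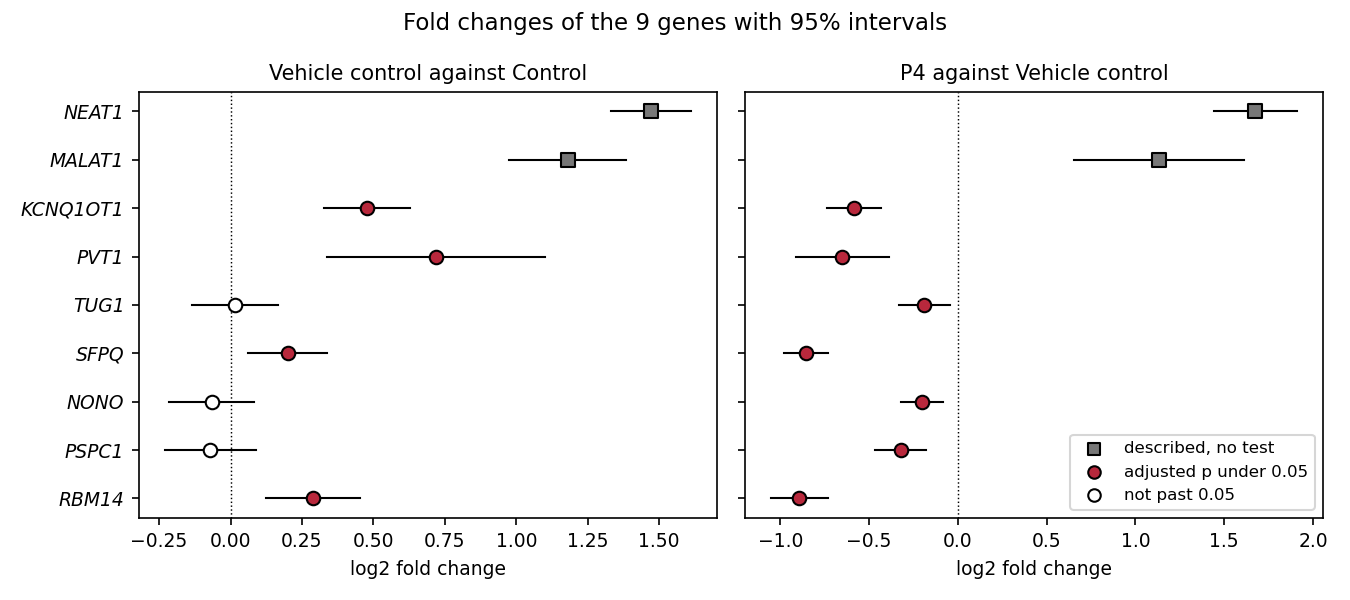
Log2 fold changes of the 9 genes in the Vehicle control against the Control (left) and in P4 against the Vehicle control (right), with approximate 95% intervals as lines. The axes of the panels differ. Squares mark NEAT1 and MALAT1, which were described only. Filled circles passed an edgeR adjusted p of 0.05. NEAT1 and MALAT1 lie right of 0 in both panels, whereas KCNQ1OT1, PVT1, SFPQ and RBM14 lie right of 0 on the left and left of 0 on the right.

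These comparisons share the Vehicle control libraries, so P4 was also set against the Control. There 4 of the 7 genes were lower, the 4 protein genes, where 28.0% of 16620 genes were called lower and 54.8% in either direction. The log2 fold changes were -0.67 for SFPQ (SE 0.09, edgeR adjusted p = 8.31e-06), -0.61 for RBM14 (SE 0.11, edgeR adjusted p = 1.25e-04) and -0.40 for PSPC1 (SE 0.10, edgeR adjusted p = 0.00178). NONO was at -0.28 (SE 0.09, edgeR adjusted p = 0.0163), with an adjusted p of 0.0608 without P4 replicate 2, 0.0623 without P4 replicate 3 and 0.0502 without Control replicate 1. KCNQ1OT1 (-0.12, 95% interval -0.32 to 0.08) and PVT1 (0.06, -0.23 to 0.35) did not differ from the Control beyond their error. TUG1 was at -0.18 (-0.36 to -0.01, edgeR adjusted p = 0.0875). With upper-quartile scaling TUG1 passed as lower (-0.25, edgeR adjusted p = 0.0182), as it did with library totals (-0.31, edgeR adjusted p = 0.0154). MALAT1 was 4.93-fold higher (2.30, SE 0.17).

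Nap only against the Control asks whether Nap alone altered these genes. Of the 7 genes 0 were called, as were 0 of the 17166 genes tested by edgeR (0.0%), with 217 genes at an unadjusted p under 0.05 and 1 gene called by DESeq2. With the replicate number as a block 66 genes were called, 0 of them among the 7. The log2 fold changes of the 7 genes ran from -0.03 for RBM14 to 0.19 for PVT1. The 95% intervals reached -0.23 and 0.17 for RBM14 and -0.28 and 0.66 for PVT1. With 2 Nap only libraries, shifts within those bounds were therefore not excluded.

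Against Nap only, the Vehicle control differs by the ethanol in its label. KCNQ1OT1 (log2 fold change 0.39, SE 0.06, edgeR adjusted p = 1.37e-04) and RBM14 (0.32, SE 0.07, edgeR adjusted p = 0.00191) were higher, 2 of the 7 genes, where 12.7% of 16935 genes were called higher and 23.8% in either direction. Without Nap only replicate 1, PVT1 also passed (0.81, adjusted p = 0.0121), and PSPC1 was lower (-0.23, adjusted p = 0.0402). NEAT1 was 2.57-fold and MALAT1 2.58-fold higher in the Vehicle control than in Nap only. P4 against Nap only gave the 4 protein genes lower, from -0.31 for NONO (SE 0.08, edgeR adjusted p = 0.00658) to -0.76 for SFPQ (SE 0.08, edgeR adjusted p = 2.04e-05), where 24.9% of 16987 genes were called lower, 24.8% higher and 49.7% in either direction. Without Nap only replicate 2 the adjusted p of NONO was 0.0954, and without P4 replicate 2 KCNQ1OT1 also passed (-0.27, adjusted p = 0.0271). Upper-quartile scaling called 6 of the 7 genes lower, with KCNQ1OT1 (adjusted p = 0.0333) and TUG1 (0.0252) added, and library totals the same 6 (0.00927 and 0.00491).

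The protein genes of the set were not the only paraspeckle genes that were lower with P4. Of 24 further genes whose proteins are known in paraspeckles, 18 fell and 2 rose against the Vehicle control and 4 did not pass the test, where 26.5% of all genes tested fell and 26.6% rose. The median log2 fold change was -0.38 beside -0.01 for all genes tested. HNRNPM, a splicing regulator, fell from 166 ± 18.1 to 56.0 ± 3.11 CPM (SD, n = 3; log2 fold change -1.58, SE 0.08, edgeR adjusted p = 3.89e-08). RBM12 fell from 180 ± 3.36 to 89.4 ± 4.73 CPM (-1.01, SE 0.07, edgeR adjusted p = 2.17e-07). AKAP8L rose from 51.6 ± 1.23 to 88.6 ± 17.5 CPM (0.78, SE 0.12), and CIRBP, a cold-inducible RNA-binding protein, from 101 ± 4.42 to 120.1 ± 8.39 CPM (0.24, SE 0.07). In the Vehicle control against the Control 6 of the 24 rose and 1 fell, with a median of 0.07. Of all genes tested there 11.9% rose, 10.7% fell and 22.6% were called in either direction. The share of the 24 called in either direction was near that of all genes. Most of those called rose, whereas among all genes rises and falls were of similar number.

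**Figure D5:**
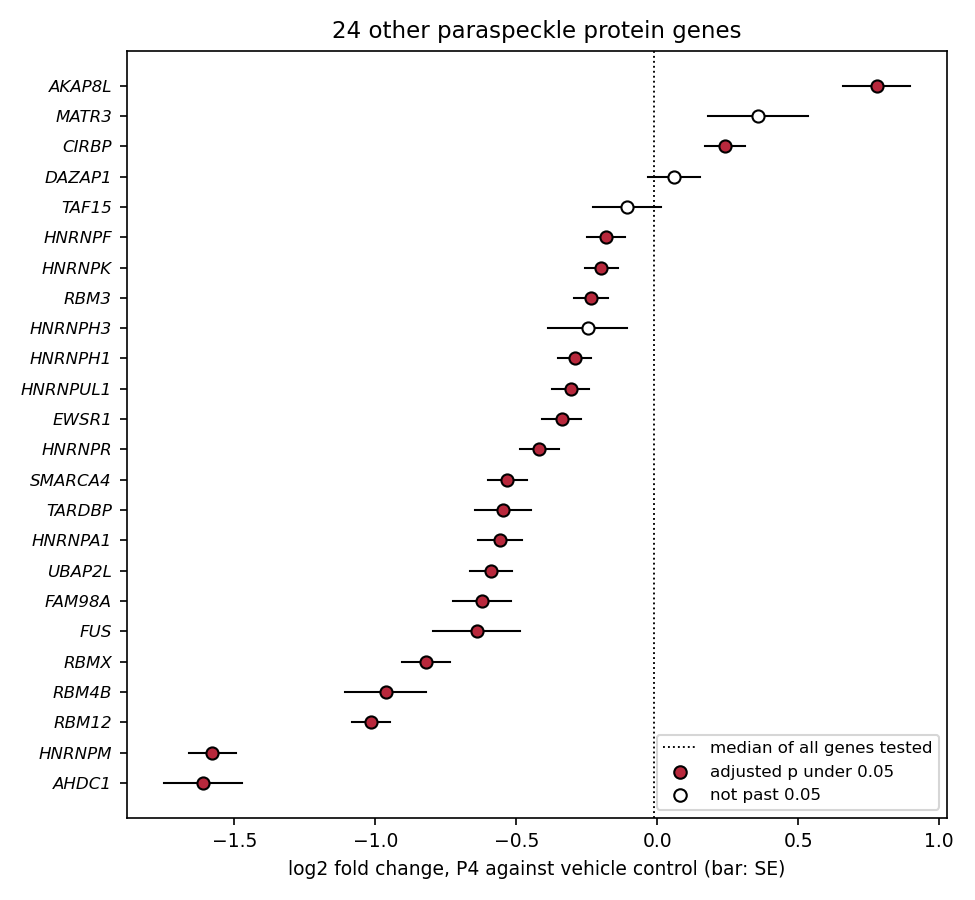
Log2 fold changes of 24 further paraspeckle protein genes in P4 against the Vehicle control, ordered by value, with lines of 1 SE on each side. Filled points passed an edgeR adjusted p of 0.05. Most points lie left of the dotted median of all genes tested at -0.01, and HNRNPM at -1.58 is among the lowest.

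Genes of RNA 3′-end processing and nuclear RNA decay are given beside the share of all genes called in P4 against the Vehicle control. That share was 53.0%, with 26.5% lower and 26.6% higher. For the first 2 lists the share called was near that of all genes. Of 15 cleavage and polyadenylation factors, which set the end of the short NEAT1 isoform, 5 fell and 3 rose (median log2 fold change -0.19). CSTF3 (-1.62, SE 0.12) and CPSF6 (-0.75, SE 0.07), a subunit of the complex known to favour the short isoform, fell, and CPSF4 (0.47, SE 0.10) and CPSF2 (0.40, SE 0.06) rose. Of 11 subunits of RNase P, which cuts the 3′ ends shown above, and of RNase Z, 5 fell and 1 rose (median -0.05). POP1 fell from 38.4 ± 0.486 to 12.7 ± 1.80 CPM (-1.60, SE 0.11) and ELAC2 by 0.45 on the log2 scale (SE 0.09), while RPP40 rose (0.85, SE 0.15). Of 17 nuclear RNA decay factors 9 rose and 4 fell (median 0.22). ZCCHC8 (0.92, SE 0.08) of the nuclear exosome targeting complex and the exosome subunit EXOSC8 (0.80, SE 0.07) rose, and PABPN1 (-0.87, SE 0.09) and ZFC3H1 (-0.47, SE 0.07) fell. EXOSC8 was at 50.45 ± 3.93 CPM in the Control, 37.8 ± 0.535 in the Vehicle control and 66.0 ± 1.71 with P4. In P4 against the Control 5 of the 17 decay factors rose and 5 fell (median 0.06). Of all genes tested there 26.8% rose and 28.0% fell.

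Of 17 nuclear speckle and SR proteins, splicing factors of the body in which MALAT1 gathers, 8 fell and 1 rose (median -0.12). The share called in either direction was near the 53.0% of all genes, but among all genes 26.5% fell and 26.6% rose. In P4 against the Control 6 of the 17 fell and 4 rose (median 0.04). Against the Vehicle control SRSF2 fell from 206 ± 4.27 to 118 ± 11.1 CPM (-0.81, SE 0.08). SRSF10 was at -0.34 (SE 0.06), and SRSF4 rose (0.26, SE 0.10). Of 21 other long noncoding RNAs 16 passed the filter on low counts, of which 6 fell and 3 rose (median -0.33), again a share called near 53.0%. CRNDE rose from 15.3 ± 1.47 to 37.7 ± 4.97 CPM (1.29, SE 0.12) and MIR22HG from 12.8 ± 1.64 to 27.6 ± 4.39 CPM (1.09, SE 0.14). MIR100HG (-1.13, SE 0.17) and CDKN2B-AS1 (-1.05, SE 0.16) fell. The 4 small nuclear RNAs RN7SK, RMRP, RPPH1 and TERC had too few counts to test.

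NEAT1 and MALAT1 lie beside each other on chromosome 11 and share their nearest protein-coding neighbours. With P4 against the Vehicle control FRMD8, which ends 9.25 kb from NEAT1, fell (log2 fold change -0.85, SE 0.10, edgeR adjusted p = 2.12e-05), as did SLC25A45 (-1.003, SE 0.18, edgeR adjusted p = 4.44e-04). TIGD3 and LTBP3 did not pass. LTBP3 rose in the Vehicle control against the Control (0.47, SE 0.10, edgeR adjusted p = 0.00151).

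The genes most like NEAT1 over the 11 labelled libraries were ranked by the root mean square difference of log2 CPM centred on each gene's mean, over 15656 genes. Closest was PPP1R15A, a phosphatase subunit of the stress response (difference 0.171), at 14.1 ± 1.51 CPM in the Control, 14.8 ± 2.94 in the Nap only, 35.4 ± 6.00 in the Vehicle control and 119.8 ± 33.5 in the P4 libraries. ADAMTS1, a secreted protease (0.242), and IGFN1 (0.258) followed, and MALAT1 stood at rank 12 (0.348). Closest to MALAT1 was EIF1, a translation initiation factor (0.181), at 58.7 ± 5.03, 54.0 ± 3.17, 151.9 ± 25.2 and 253 ± 47.8 CPM in the same order of groups, then RAPH1, an actin regulator (0.238), and NFKBIZ, a nuclear regulator of NF-kappaB (0.249). This ranking is a description and no test was run on it.

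Promoter windows from RefSeq (GRCh38.p14), 250 bases before to 50 after a start, were given for MALAT1, TUG1, NONO, PSPC1 and RBM14. Of their 6 windows 0 held the ATF4 element TGATGNAAT on either strand, which 0.991% of 35116 windows held. The full progesterone and glucocorticoid receptor element was likewise in 0 of the 6 windows and the heat shock element in 0, and 0.00285% and 0.490% of all windows held these. At such low shares 0 of 6 windows says little about these genes. No window was given for NEAT1, SFPQ, KCNQ1OT1 or PVT1.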

How the data were processed

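Libraries of total RNA from 17 Ishikawa cultures were sequenced from 1 end. The authors used Cutadapt and a quality filter, mapped the reads with Subread, kept unique hits, and deposited raw counts per gene made by featureCounts with GENCODE 31. Versions and the strand setting are not given in the sources used here. Columns not used numbered 0. The label of each column gave its group, and 6 libraries whose labels disagree about P4 entered no comparison. Names, lengths and positions came from GENCODE 29 on GRCh38 for 58587 of 60662 genes.

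From the counts, edgeR 4.0.16 (R 4.3.3) was run on the groups compared, with TMM factors, robust quasi-likelihood fits and filterByExpr at a minimum count of 10, with Benjamini-Hochberg adjustment and a threshold of 0.05. Standard errors were the log2 fold change over the root of F, and intervals were approximate. The fitting code was run on simulated counts with known changes, which does not measure the error of the calls given here. Alternatives were RLE, upper-quartile and library-total scaling, no mitochondrial transcripts, DESeq2 1.42.0, other filters, all 4 groups in 1 fit, the replicate number as a block and each replicate left out. Python 3.11.15 with pandas 2.3.3, scipy 1.17.1 and numpy 2.4.6 made the tables.

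The members, lists and tests were chosen with earlier results of these data known. Named genes were all 9 members, in each list the 2 called genes of smallest adjusted p that rose and that fell, and the 3 nearest in pattern to NEAT1 and to MALAT1 (CPM of at least 1, 0.5 added before logs). KCNQ1, MYC and the neighbours of NEAT1 were named by position, and 1 result is not reported here. MATR3 and RMRP have 2 identifiers each, of which the one with the higher mean count was used.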

Additional observations from a re-analysis of the deposited data

Results flagged for a closer look

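The 6 libraries outside the comparisons were treated with recombinant PSAT1, and their titles and column names disagree about P4. They are named here by column, and each value above the highest Control library is given. For NEAT1, whose highest Control value was 103 CPM, these were 625, 867 and 1115 CPM in the columns named PSAT1_P4 and 127 CPM in 1 column named PSAT1. For MALAT1, with a highest Control value of 2316 CPM, they were 8024, 9612 and 14458 CPM, all in columns named PSAT1_P4. KCNQ1OT1 was at 153, 167 and 164 CPM in the columns named PSAT1 (highest Control 149 CPM). PVT1 was at 35.9 and 35.7 CPM in 2 columns named PSAT1 and at 34.8 CPM in 1 named PSAT1_P4 (highest Control 34.4 CPM). SFPQ reached 454 CPM (highest Control 449 CPM) and RBM14 68.1 CPM (highest Control 63.0 CPM), each in 1 column named PSAT1. No comparison was made, since the labels do not give the group of these libraries.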

How the results depend on the processing

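Of 609 fold changes of the 7 tested genes under alternatives, 536 kept their direction and side of the threshold, 32 lost the call, 14 gained it and 27 changed sign. Of the 174 of NEAT1 and MALAT1, 172 moved by less than the replicate spread and 0 changed sign. For P4 against the Vehicle control, KCNQ1OT1, PVT1, SFPQ, PSPC1 and RBM14 passed in all 15 alternatives. In the Vehicle control against the Control, library totals alone left 1 of 4 members called, and leaving out a replicate 1 to 3, with 1908 to 3995 genes called. In the Vehicle control against Nap only, library totals gave 4 members, leaving out a replicate 2 to 4, and genes called were 2267 with DESeq2, 1912 with all 4 groups in 1 fit and 2355 to 3803 without a replicate. In P4 against Nap only, leaving out a replicate gave 5502 to 9719 genes. In Nap only against the Control, 1 gene was called with library totals, DESeq2 or all 4 groups, 3 without a filter, and 0 to 5 without a replicate.

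The sign changes were all of values that had not passed. TUG1 was at -0.00065 with library totals and -0.0099 without a filter in the Vehicle control against the Control, and ran from -0.0457 to 0.0873 without a replicate. TUG1 in Nap only against the Control was at 0.0049 (upper quartile), 0.0237 (library totals) and 0.0137 (replicate block) and ran from -0.0942 to 0.0633 without a replicate. In the Vehicle control against Nap only TUG1 was at -0.0215 (library totals) and -0.0321 (replicate block) and ran from -0.0434 to 0.106. PVT1 in P4 against the Control was at -0.00069 (upper quartile) and -0.0709 (library totals) and ran from -0.102 to 0.235. Without a replicate PVT1 ran from -0.379 to 0.173 in P4 against Nap only and from -0.112 to 0.447 in Nap only against the Control. In that last comparison KCNQ1OT1 ran from -0.0200 to 0.187, NONO was at -0.0244 (replicate block) and ran from -0.0247 to 0.0856, and RBM14 was at 0.0039 (library totals) and ran from -0.0920 to 0.0703. The cause was not tested.

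With the replicate number as a block, 6 of 7 members passed in P4 against the Vehicle control (TUG1 at an adjusted p of 0.0536), 3 in the Vehicle control against the Control (SFPQ at 0.0691) and 3 in the Vehicle control against Nap only (PVT1 at 9.64e-08), and 66 genes were called in Nap only against the Control. In no comparison with 3 same-numbered pairs did every pair correlate above 0.1, so the block was kept as an alternative. Only in Nap only against the Control did both pairs (0.256 and 0.320). With 2 Nap only libraries their deviations from the group mean mirror each other, so these 2 correlations are not independent. Vehicle control replicate 1 has the lowest depth and Nap only has 2 libraries, and p-values measure the spread between cultures of 1 line.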

Other observations

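In the same 6 libraries with contradictory labels, NEAT1 gave 2.56, 3.39 and 4.14 counts per SFPQ count in the columns named PSAT1_P4 and 0.221, 0.288 and 0.220 in those named PSAT1. NEAT1 gave 0.0779, 0.0902 and 0.0771 counts per MALAT1 count in the former and 0.0541, 0.0602 and 0.0497 in the latter. SFPQ was at 245, 256 and 269 CPM and RBM14 at 33.0, 31.9 and 33.2 CPM in the columns named PSAT1_P4, and at 454, 440.3 and 447 CPM and 59.3, 58.0 and 68.1 CPM in those named PSAT1.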
